A study of Mus musculus with 6 samples.

Results

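The endothelial identity genes described here are 10 genes whose products mark or build the lining of blood vessels: Pecam1, Cdh5, Emcn, Sox7, Sox17, Sox18, Egfl7, Esam, Tie1 and Cd34. They were fixed by name, and every probe set assigned to 1 of these genes alone was taken. This gave 15 of the 30618 probe sets, or 10 of 13817 genes, and no member was lost. There were 7 genes with 1 probe set, 2 with 2 (Cdh5 and Sox17) and Egfl7 with 4. A probe set is a group of short array probes read as 1 value, given here as a log2 expression value, so that a difference of 1 means a doubled signal.

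The tissue was articular cartilage with the subchondral bone under it, cut in 1 piece from the tibial plateau of male C57Bl/6J mice aged 6 weeks, with bone marrow and part of the growth plate in the piece. Each array held the RNA of a single joint of 1 mouse. The groups were Frzb-/- mice (animals 14 and 17), another mouse labelled Frzb-/- (animal 6), which is shown apart, and 3 wild-type mice (animals 6-1, 8-1 and 9-1). Frzb encodes a secreted protein that binds WNT ligands, and the knockout was carried by all cells of the animal after backcrossing to C57Bl/6J. The comparison asked which transcripts of this tissue differed in the absence of Frzb.

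The study left out 1 of its mice labelled Frzb-/- after that array had clustered with the wild-type arrays and the mouse was re-genotyped as heterozygous, without naming the animal. Frzb itself had 7.02 and 6.42 in animals 14 and 17, 6.93 in animal 6 and 10.02, 10.79 and 10.16 in wild-type mice, and its other probe set ran the same way. Frzb was therefore as low in animal 6 as in the other mice labelled Frzb-/-. Over all probe sets, animal 6 correlated with the wild-type arrays at r of 0.983 to 0.991, and with animals 14 and 17 at 0.957 and 0.94. The choice of animals 14 and 17 thus rests in part on expression. It also sets how many calls are made: with all 3 labelled mice against wild-type, limma with Benjamini-Hochberg adjustment called 0 of the 15 member probe sets under either rule below.

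Endothelial cells line all blood and lymphatic vessels. They hold together through junction proteins such as VE-cadherin, the product of Cdh5, and their fate is set by ETS and SOX family transcription factors. In long bones, marrow sinusoids, arterioles and capillaries at the growth plate differ in the surface proteins they carry, and endomucin, from Emcn, is a standard mark of the capillary and sinusoidal types. Articular cartilage has no vessels, whereas bone, marrow and soft tissues do. Skeletal muscle transcripts were abundant on these arrays, with Acta1, the skeletal muscle actin, at 14.35 and 14.61 in Frzb-/- mice, 13.85 in animal 6 and 14.53, 14.27 and 14.14 in wild-type mice, so which tissue held the vessels measured was not known. In bulk tissue such as this, more endothelial cells, more RNA per endothelial cell and a changed share of other tissues cannot be told apart. Several of the genes are not private to vessels, since Cd34 and Esam mark blood stem cells and Pecam1 is also made by platelets and leukocytes.

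The stretch just before the gene start is shown for Cd34 and Emcn, which were higher in Frzb-/- mice, and for Tie1, which differed least. The sequences are the 250 bases before the start in RefSeq on build GRCm38.p6, printed 5′ to 3′ on the gene's own strand. Capitals mark AGGAA (1 form of an ETS site, the core GGAA after an A) and ACAAT (the core of a SOX site) on either strand. GGAA after another base was not marked or counted, and the Tie1 window holds such stretches. They lie at chr1:194938571-194938820 (+ strand) for Cd34, chr3:137340828-137341077 (+ strand) for Emcn and chr4:118489850-118490099 (- strand) for Tie1.
Cd34: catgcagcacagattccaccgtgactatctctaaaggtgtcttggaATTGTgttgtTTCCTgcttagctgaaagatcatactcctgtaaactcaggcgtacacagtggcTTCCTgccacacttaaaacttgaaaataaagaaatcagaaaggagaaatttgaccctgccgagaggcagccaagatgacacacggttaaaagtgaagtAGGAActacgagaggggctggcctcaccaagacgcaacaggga
Emcn: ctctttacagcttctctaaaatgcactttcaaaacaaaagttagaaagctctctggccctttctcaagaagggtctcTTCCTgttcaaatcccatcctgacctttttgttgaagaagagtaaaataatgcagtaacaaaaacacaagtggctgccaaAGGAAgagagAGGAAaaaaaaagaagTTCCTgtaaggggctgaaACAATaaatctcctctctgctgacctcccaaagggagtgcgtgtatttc
Tie1: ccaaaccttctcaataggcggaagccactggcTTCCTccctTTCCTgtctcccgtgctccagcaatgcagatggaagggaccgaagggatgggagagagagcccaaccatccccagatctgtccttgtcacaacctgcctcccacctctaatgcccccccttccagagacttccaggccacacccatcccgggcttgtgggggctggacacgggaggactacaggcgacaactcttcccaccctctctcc
Cd34 held 3 matches to AGGAA and 1 to ACAAT, Emcn held 4 and 1, and Tie1 held 2 matches to AGGAA and none to ACAAT. Windows were given for 4 of the 10 members, 6 windows in all since Egfl7 had 3. AGGAA stood in 5 of the 6 windows and in 60.3% of all 32851 windows of that length, and ACAAT in 2 of the 6 and in 27.7% of all. The site of GATA factors, AGATAA, stood in 0 of the 6 and in 9.99% of all. In total 13 motifs were searched, several of them longer forms of these, and the letters shown were chosen after the matches had been seen. Among the 13, the longer ETS form ACAGGAA, which contains AGGAA, stood in 4 of the 6 windows and in 7.2% of all. Those windows included that of Tie1, which differed least, and alternative windows of Egfl7, but not that of Cd34. These matches describe letters only, and binding was not measured.

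All 15 probe sets had a higher mean in Frzb-/- than in wild-type mice, and at 14 of them both Frzb-/- values lay above all 3 wild-type values. Such a separation was seen at 27.5% of all probe sets. The differences ran from 0.04 for Tie1 to 1.48 for Sox17. Taking each gene at its brightest probe set, the median difference was 0.73 over the 10 genes and 0.04 over all genes. It was 0.61 over the 15 probe sets and 0.02 over all probe sets.

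**Figure D1:**
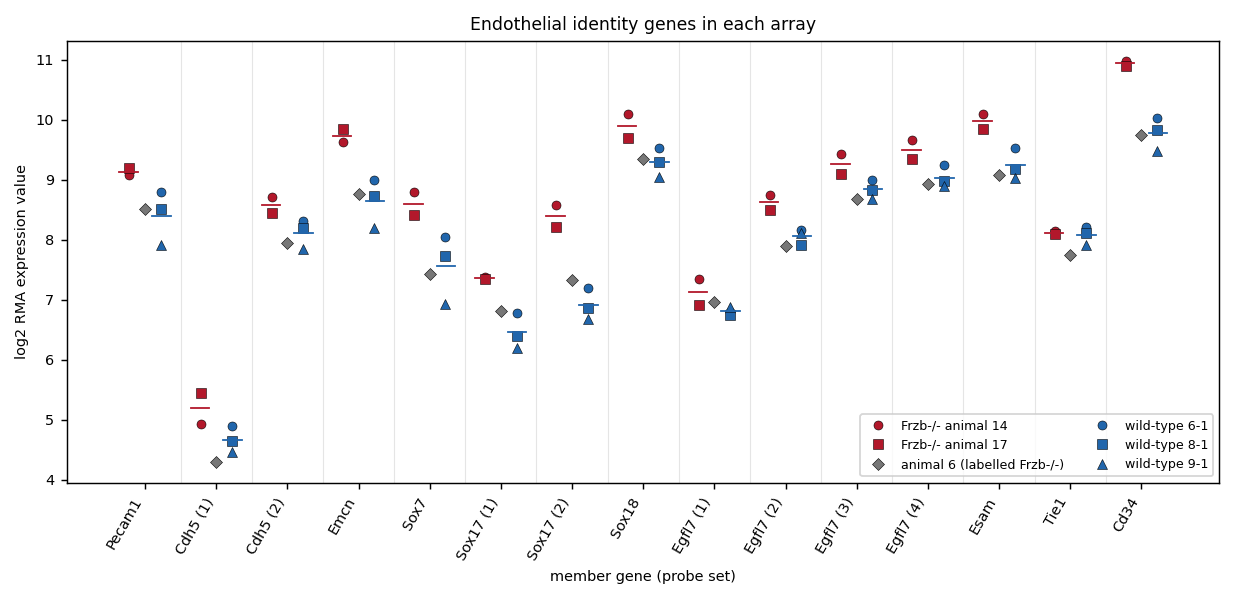
Log2 RMA expression value (vertical axis) of each member probe set (horizontal axis) in each array, with Frzb-/- animals in red, animal 6 in grey and wild-type animals in blue, and a short line at each group mean. Tie1 is the 1 probe set at which the red and blue points overlap, and the grey point lies below both red points at 14 of 15 probe sets.

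Calls were made with limma over all probe sets, with Benjamini-Hochberg adjustment. The first rule was an adjusted p under 0.01 with a difference beyond 1 on the log2 scale, and the second an adjusted p under 0.05 at any size. Under the first rule 2 of the 15 probe sets were higher in Frzb-/- mice (1 each of Sox17 and Cd34), where 2.34% of all probe sets were, and 0 were lower, where 5.09% were. Under the second rule 6 were higher (both of Sox17, and 1 each of Cd34, Emcn, Esam and Egfl7), where 11.7% of all were, and 0 were lower, where 14.8% were. Counted by gene at the brightest probe set, 2 of 10 were higher under the first rule and 4 of 10 under the second, against 3.03% and 13.8% of all genes, and 0 were lower, against 6.02% and 15.3%. Before adjustment, 13 of the 15 probe sets had p under 0.05, all of them higher, where 18.4% of all probe sets were higher at that level.

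These counts depended on single mice. Under the first rule the count was 0 without animal 14, without animal 17 or without animal 8-1, where 1.16%, 0.317% and 0.973% of all probe sets were higher. Under the second it was 3 without animal 17 or without animal 8-1, where 6.55% and 6.36% of all were higher.

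Sox17 had the largest difference of the members. Sox17, Sox18 and Sox7 form the SOXF group, whose members act together in vessel formation, and Sox17 is best known from arteries. At its brighter probe set Sox17 had 8.58 and 8.22 in Frzb-/- mice, 7.33 in animal 6 and 7.20, 6.87 and 6.68 in wild-type mice. The groups were set apart by 1.02, the widest gap among the members. The difference was 1.48 ± 0.19 (SE), a 2.80-fold higher signal, with an adjusted p of 0.00266 in limma. This probe set carries a suffix that marks probes which may also bind other transcripts. The other Sox17 probe set does not, and had 7.38 and 7.34 in Frzb-/- mice against 6.78, 6.39 and 6.20 in wild-type mice, a difference of 0.90 ± 0.18 (SE) with an adjusted p of 0.0132. Sox17 thus rose at both probe sets under the second rule.

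Sox7 had 8.80 and 8.41 in Frzb-/- mice, 7.43 in animal 6 and 8.05, 7.73 and 6.93 in wild-type mice. Its wild-type values were the most spread of all members (SD 0.57, n = 3). The difference of 1.03 ± 0.32 (SE) just missed the second rule at an adjusted p of 0.053 in limma. Sox18, which is also needed for lymphatic vessels, had 10.10 and 9.69 in Frzb-/- mice, 9.34 in animal 6 and 9.53, 9.30 and 9.04 in wild-type mice. Its difference was 0.61 ± 0.19 (SE) with an adjusted p of 0.0562. The groups did not overlap at Sox7 or Sox18, yet neither gene passed.

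Among the surface sialomucins, Cd34 and Emcn rose. Cd34, carried by capillary endothelium and by blood stem cells, had 10.98 and 10.90 in Frzb-/- mice, 9.74 in animal 6 and 10.02, 9.82 and 9.48 in wild-type mice. The Frzb-/- values differed by little from each other and stood 0.88 above the highest wild-type value. The difference was 1.17 ± 0.17 (SE), or 2.25-fold, with an adjusted p of 0.00438 in limma. Emcn had 9.62 and 9.84 in Frzb-/- mice, 8.76 in animal 6 and 8.99, 8.72 and 8.19 in wild-type mice. It was higher by 1.10 ± 0.24 (SE), or 2.14-fold, and passed the second rule with an adjusted p of 0.016, but not the first. Without animal 17 the adjusted p of Emcn was 0.0977.

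Of the 3 junction genes, Esam alone passed the second rule. Esam encodes an adhesion molecule of tight junctions and of platelets, and had 10.09 and 9.84 in Frzb-/- mice, 9.08 in animal 6 and 9.52, 9.18 and 9.03 in wild-type mice. Its difference was 0.72 ± 0.18 (SE) with an adjusted p of 0.0244 in limma. The call did not hold without animal 14, 17, 8-1 or 9-1, where the adjusted p lay between 0.055 and 0.111.

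Pecam1, the CD31 antigen found at contacts between endothelial cells, had 9.08 and 9.19 in Frzb-/- mice, 8.51 in animal 6 and 8.79, 8.51 and 7.92 in wild-type mice. The difference was as large as that of Esam, 0.73 ± 0.25 (SE), but the wild-type spread was wider (SD 0.44, n = 3) and the adjusted p was 0.0686. Cdh5 at its brighter probe set had 8.71 and 8.45 in Frzb-/- mice, 7.95 in animal 6 and 8.32, 8.19 and 7.85 in wild-type mice. Its difference was 0.46 ± 0.17 (SE) with an adjusted p of 0.0963. The dimmer Cdh5 probe set had 4.93 and 5.45 in Frzb-/- mice against 4.90, 4.65 and 4.46 in wild-type mice, so that the groups were apart by only 0.04, and an adjusted p of 0.098.

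Egfl7, a factor that endothelial cells deposit in their matrix and whose gene hosts a microRNA, was measured by 4 probe sets with differences of 0.32 to 0.55. The one that passed the second rule had 8.75 and 8.49 in Frzb-/- mice, 7.89 in animal 6 and 8.17, 7.92 and 8.11 in wild-type mice, with an adjusted p of 0.0303 in limma. It carries the same suffix as the brighter Sox17 probe set. The brightest Egfl7 probe set, which carries it too, had 9.66 and 9.34 in Frzb-/- mice against 9.24, 8.98 and 8.89 in wild-type mice and did not pass (0.47 ± 0.16, SE, adjusted p 0.0741). The other Egfl7 probe sets had adjusted p of 0.0905 and 0.178, so the 4 probe sets of this gene lay on both sides of the threshold.

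Tie1, a receptor tyrosine kinase that works with the angiopoietin receptor, had 8.14 and 8.09 in Frzb-/- mice, 7.74 in animal 6 and 8.22, 8.11 and 7.91 in wild-type mice. The Frzb-/- values lay inside the wild-type range. The difference of 0.04 had a 95% interval of -0.28 to 0.35, and the adjusted p was 0.868. The sign of this difference turned without animal 9-1 and with all 3 labelled mice.

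**Figure D2:**
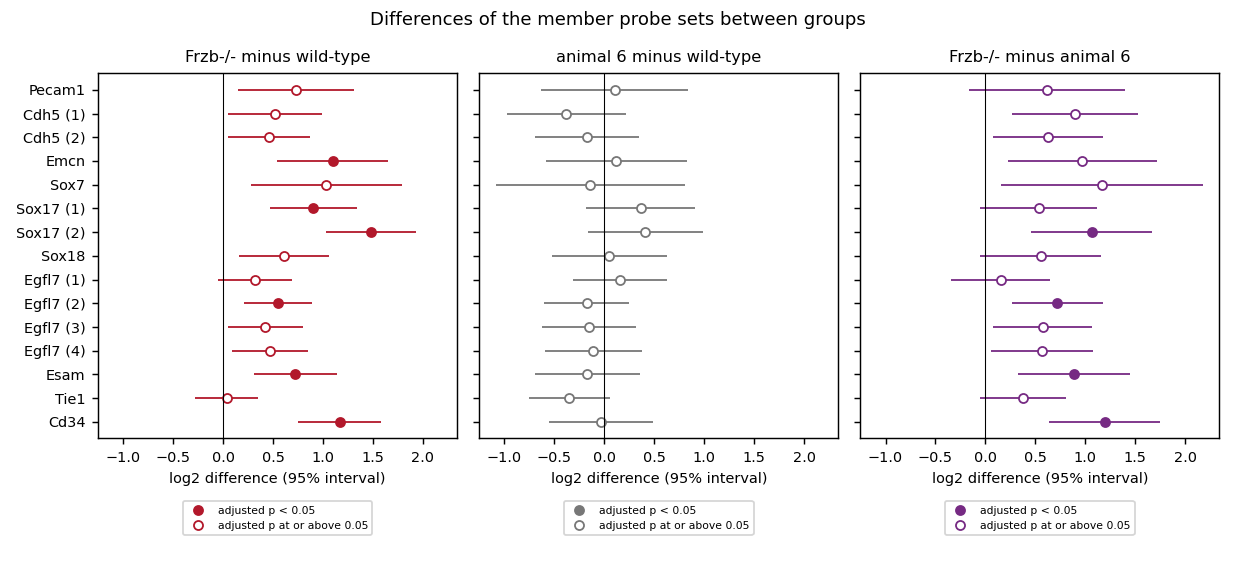
Log2 difference of each member probe set (rows) with its 95% interval from limma, for Frzb-/- minus wild-type (left), animal 6 minus wild-type (middle) and Frzb-/- minus animal 6 (right). Filled points have an adjusted p under 0.05: 6 of 15 on the left, 0 in the middle and 4 on the right.

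Animal 6 was close to the wild-type mice at these genes. Its value lay within the wild-type range at 9 of the 15 probe sets, above it at 3 and below it at 3, and below both Frzb-/- values at 14. The difference of animal 6 minus wild-type ran from -0.38 to 0.41 with a median of -0.07 over the 10 genes. In a limma fit with 3 groups, where the lone array is assumed to vary like the others, 0 of the 15 passed the second rule (smallest adjusted p 0.726), with 0 at an unadjusted p under 0.05, where 7.18% of all probe sets were in either direction. Only 0.0131% of all probe sets were higher by that rule, so the contrast called almost nothing after adjustment anywhere. Sox17 was the gene at which animal 6 stood farthest above wild-type, by 0.41 with a 95% interval of -0.16 to 0.99.

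Set against animal 6 directly, the Frzb-/- mice had a median difference of 0.76 over the 10 genes. Of the 15 probe sets, 4 passed the second rule, where 6.04% of all probe sets were higher, and 0 passed the first, where 0.787% were. The 4 were Cd34 (1.20, adjusted p 0.0186 in limma), the brighter Sox17 probe set (1.07, adjusted p 0.0331), Esam (0.89, adjusted p 0.0429) and the Egfl7 probe set called above (0.72, adjusted p 0.043). This comparison shares its Frzb-/- arrays with the one against wild-type, and the choice of those arrays rested in part on expression.

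The members kept much the same order of mice. Animal 6-1 was the highest wild-type mouse at 14 of the 15 probe sets, and animal 9-1 the lowest at 13. Animal 14 was above animal 17 at 12. With each gene centred on its mean over the 6 arrays, the mean of the 10 genes was 0.61 and 0.44 in Frzb-/- mice, -0.28 in animal 6 and 0.02, -0.22 and -0.57 in wild-type mice. The wild-type mice thus spanned 0.59 among themselves, while the lowest Frzb-/- value stood 0.41 above the highest wild-type value. Several lists, adipocyte and skeletal muscle genes among them, had the same order among the wild-type mice, whereas some others did not. The leukocyte and neutrophil lists had centred means of 0.27 and 0.45 in animal 6-1, their lowest wild-type values, and 0.75 and 1.02 in animal 9-1. The centred mean of 5 adipocyte genes was 0.91 and 0.87 in Frzb-/- mice, -0.90 in animal 6 and 0.12, -0.31 and -0.69 in wild-type mice. That of 8 skeletal muscle genes was 0.16 and 0.42 in Frzb-/- mice, -0.74 in animal 6 and 0.39, -0.02 and -0.21 in wild-type mice. Animal 6-1 was the highest and animal 9-1 the lowest wild-type mouse in both lists, as in the members, and animal 6 was the lowest array in both. The mural cell list, of pericyte and smooth muscle genes, shared both traits. It had -0.13, -0.23 and -0.42 in animals 6-1, 8-1 and 9-1 and -0.49 in animal 6. Osteoclast genes had that wild-type order too (-0.04, -0.09 and -0.13), but 0.23 in animal 6. The part of these lists in the members' order was not tested.

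The genes outside the list with the closest profile over the 6 arrays were Zfp316, Lrrc75a, Adgrl4, Eno2 and Bfar, with r of 0.9974 to 0.9993 to the mean of the members. Adgrl4, a receptor of endothelial cells, had 9.00 and 8.86 in Frzb-/- mice, 8.12 in animal 6 and 8.44, 8.23 and 7.78 in wild-type mice. With so few arrays such values are common: 479 of 13807 genes (3.47%) had r over 0.95.

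The wider set of endothelial genes was given by 66 measured genes in 6 lists. Of these, 33 were higher and 9 lower in Frzb-/- mice under the second rule, and 6 were higher and 6 lower under the first. Over all genes the shares were 13.8% higher and 15.3% lower under the second rule, and 3.03% and 6.02% under the first, and they are the background of the list counts below as well. The share of lower genes among the 66 was thus near that of all genes under the second rule. Their median difference was 0.52. The count of higher genes was 12 without animal 14, 19 without animal 17 and 17 without animal 8-1, where 7.51%, 8.26% and 7.67% of all genes were higher, and 0 with all 3 labelled mice.

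Receptors and junction proteins ran as the members did. Of 13 receptor and signalling genes, 8 were higher and 0 lower under the second rule (median 0.55). Ramp2, a partner of the adrenomedullin receptor, had the largest difference, 1.01 (adjusted p 0.0105). Kdr and Flt1, the VEGF receptors, had differences of 0.37 and 0.48 that did not pass (limma adjusted p 0.0854 and 0.0766). Of 15 junction and surface genes, 9 were higher and 1 lower (median 0.70). Clec14a, a C-type lectin of endothelial cells, rose by 1.05 and Plvap, which forms the diaphragms of fenestrae, by 0.77. Cd93 at 0.20 did not pass. Cldn15 was the lower gene, at -1.03.

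Arterial genes were higher at 5 and lower at 1 of 8 (median 0.55). Gja4, a connexin of arterial endothelium, rose by 1.40 and Bmx, a kinase used as an arterial mark that myeloid cells also make, fell by 1.20. Venous, lymphatic and sinusoidal genes were higher at 5 and lower at 1 of 9 (median 0.50). Lyve1 and Pdpn, used as lymphatic marks though macrophages carry Lyve1 and osteocytes and stromal cells carry Pdpn, rose by 1.42 and 1.23. Prox1, the factor that sets lymphatic fate, had 3.10 and 3.40 in Frzb-/- mice, 2.97 in animal 6 and 3.10, 3.11 and 3.03 in wild-type mice, near the lowest values on the arrays (2.47 was the lowest of all). Aplnr, the apelin receptor, rose by 0.50.

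Stab2, a scavenger receptor of sinusoidal endothelium, went the other way. It had 6.38 and 5.90 in Frzb-/- mice, 7.88 in animal 6 and 7.88, 7.93 and 8.45 in wild-type mice, and fell by 1.95 with an adjusted p of 0.00185 in limma.

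The haemostasis and transcription factor lists were divided. Of 8 haemostasis and adhesion genes, 3 were higher and 2 lower (median -0.28). Procr, the protein C receptor, which blood stem cells carry too, rose by 1.54. Vcam1, a leukocyte adhesion molecule that marrow stroma and macrophages also make, fell by 1.63, and Vwf, the von Willebrand factor of endothelium and megakaryocytes, fell by 0.55 (adjusted p 0.0381 in limma). Of 13 transcription factor genes, 3 were higher and 4 lower (median 0.07). Meox2 rose by 1.65, Tal1 fell by 2.54 and Lmo2 by 1.70, the last 2 genes being shared with erythroid cells and blood progenitors. Klf4 at 0.41 did not pass. Erg, an ETS factor, was among the higher genes and Fli1, an ETS factor of endothelium and blood cells, among the lower, with differences of 0.64 and -0.76. In animal 6, Erg had 8.24 and Clec14a, of the junction list, 7.62. These lay nearer the Frzb-/- means of 8.42 and 8.03 than the wild-type means of 7.78 and 6.97. Over the 66 genes the median of animal 6 minus wild-type was -0.02.

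**Figure D3:**
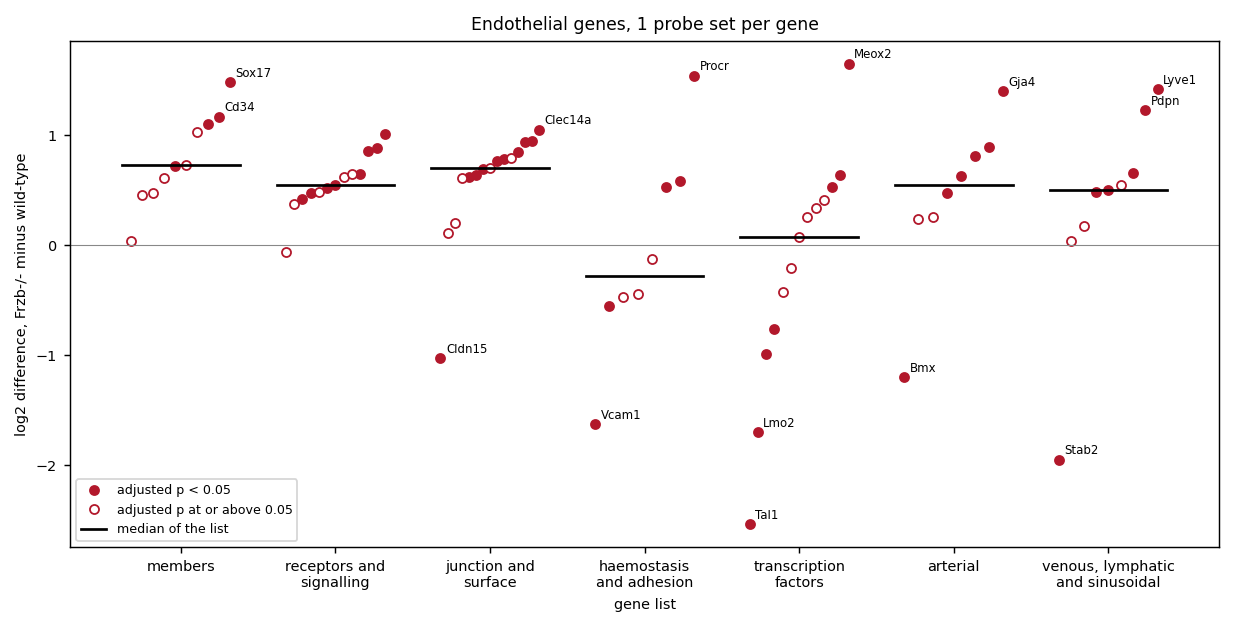
Log2 difference of Frzb-/- minus wild-type (vertical axis) for each endothelial gene at its brightest probe set, by list (horizontal axis), with filled points for an adjusted p under 0.05, names for genes past the first rule and a line at each list's median. The members have a median of 0.73, and the transcription factor list runs from -2.54 to 1.65.

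Genes of other cell types moved in the same arrays. Of 12 mural cell genes, which mark pericytes and smooth muscle, 9 were higher and 0 lower under the second rule (median 0.82). Myh11 had 9.75 and 10.11 in Frzb-/- mice, 8.12 in animal 6 and 8.19, 8.34 and 7.89 in wild-type mice, and the bright Rgs5, Acta2 and Tagln rose by 0.83, 1.24 and 1.44. Of 9 fibroblast and adventitia genes, 8 were higher and 1 lower (median 0.75), with Thy1 higher by 1.94, Dpt by 1.77, Dcn by 0.75 and Col3a1 by 0.70. All 5 adipocyte genes were higher (median 1.21), with Retn at 1.82, Cidec at 1.52, Fabp4 at 0.76 and Lpl at 0.60. None of 8 skeletal muscle genes passed (median 0.23). Acta1, Myl1 and Tnnt3, with 0.16, 0.34 and 0.33, were among these.

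Blood cell genes were lower. Neutrophil genes were lower at 10 of 10 (median -2.48), erythroid genes at 7 of 7 (median -2.86), leukocyte genes at 8 of 9 (median -1.83), megakaryocyte and platelet genes at 8 of 9 (median -1.83) and B cell genes at 5 of 8 (median -1.77). Mmp8, a collagenase of neutrophils, had 7.78 and 7.50 in Frzb-/- mice, 11.06 in animal 6 and 10.46, 11.59 and 11.47 in wild-type mice. Car1, a carbonic anhydrase of red cell precursors, had 6.86 and 7.51 in Frzb-/- mice, 10.90 in animal 6 and 10.58, 10.27 and 10.72 in wild-type mice. The Frzb-/- and wild-type values did not overlap at either gene, and animal 6 lay with or near the wild-type mice.

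Of 10 stem and progenitor genes, which bear on Cd34 and Esam, 3 were higher and 4 lower (median -0.28). The higher genes were Hlf by 1.58, Procr, already named, by 1.54 and Mecom by 0.81. In animal 6, Hlf had 7.53, the same as in animal 14, against 6.53, 6.49 and 5.86 in wild-type mice. Procr and Mecom had 8.29 and 7.04 there, nearer the wild-type means of 7.87 and 7.28 than the Frzb-/- means of 9.41 and 8.09. Myb and Kit fell by 2.84 and 1.62, while Hoxa9 at 0.37 did not pass. None of 9 cartilage genes passed (median -0.04), with Col2a1 at 0.03 and Comp at 0.24, and of 7 bone genes 1 was higher and 2 lower (median 0.16), with Sost, the osteocyte WNT antagonist, lower by 2.57 on the log2 scale. None of 7 osteoclast genes passed (median 0.05). The centred mean of the neutrophil list was -1.38 and -1.79 in Frzb-/- mice, 0.68 in animal 6 and 0.45, 1.02 and 1.02 in wild-type mice. That of the mural list was 0.58 and 0.70 in Frzb-/- mice, -0.49 in animal 6 and -0.13, -0.23 and -0.42 in wild-type mice. The part of these other cell types in the members' differences was not tested.

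**Figure D4:**
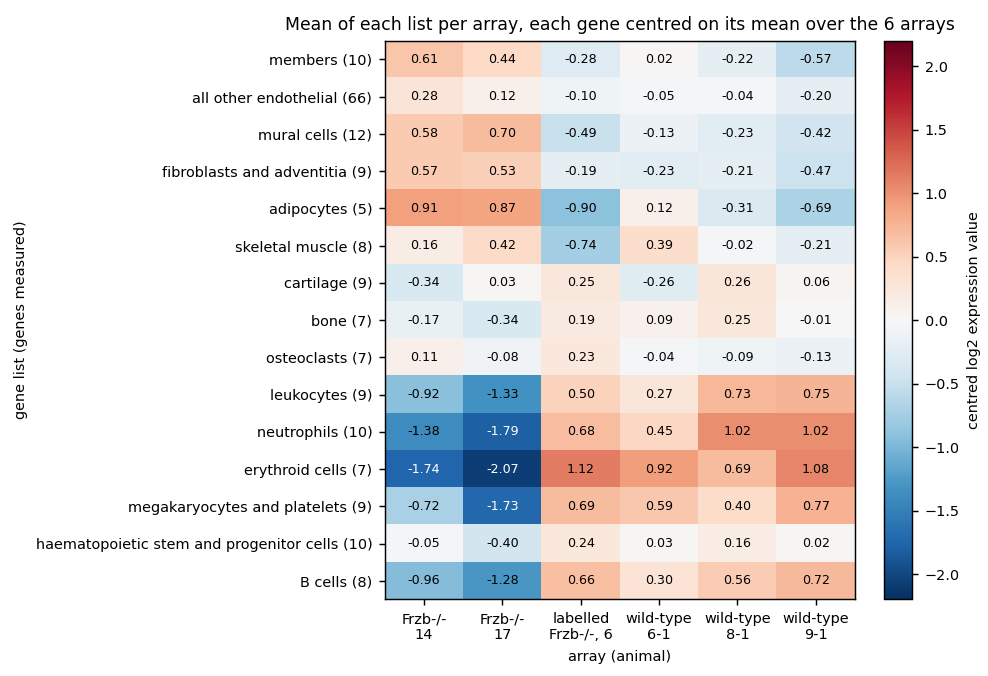
Mean of each gene list (rows, with the number of genes measured) in each array (columns, Frzb-/- mice left, then animal 6 and wild-type mice), each gene centred on its mean over the 6 arrays, in log2 units. The members are at 0.61 in animal 14 and at -0.57 in animal 9-1, and the blood cell lists are lowest in the Frzb-/- columns.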

How the data were processed

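RNA from 6 tibial pieces was hybridised to Affymetrix mouse genome arrays. The authors deposited log2 expression values, made by RMA (affy 1.20.0 in the submitters' processing notes), which corrects background and normalises by quantiles. Absent probe sets had been removed by the authors. The table held 30618 probe sets and no detection calls, array medians were 7.32 to 7.45, and the number of arrays limits the precision. Probe sets were named from the array annotation: 25090 had 1 gene, 677 several and 4851 none. Replicates were separate mice, and no batch was given in the labels.

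A linear model was fitted to every probe set in R 4.3.3 with limma 3.58.1, with moderated two-sided tests and Benjamini-Hochberg adjustment over all 30618. It held 2 Frzb-/- and 3 wild-type arrays, and animal 6 entered a separate fit of 3 groups. On simulated data of this size, 97 of 100 probe sets shifted by 1.5 and 99 of 100 shifted by 2.5 were called. There were 0 false calls. The simulated noise was independent between probe sets, without variation shared across a whole array, and both shifts were larger than any member difference. The simulation therefore does not measure power or false calls for the members in these data. Lists used the probe set of each gene with the highest mean over the 6 arrays. Python 3.11.15 and pandas 2.3.3 made the tables.

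The genes named were all members, Frzb, endothelial genes past the first rule or among the 8 largest differences or the 4 brightest, the brightest and most changed genes of each other list (given here in part), and the 5 closest profiles; Prox1, Kdr, Flt1, Ramp2, Vwf, Erg, Fli1, Hlf and Mecom were added after their values were seen. Members and lists were chosen with earlier results of these data known. In the lists, 11 genes without a probe set of their own were not analysed here. Other settings covered all 3 mice labelled Frzb-/-, each mouse dropped in turn, a filter on dim probe sets, cyclic loess, centring on cartilage and bone genes, other moderation, array weights and averaging of the probe sets of each gene.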

Additional observations from a re-analysis of the deposited data

How the results depend on the processing

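With 2 Frzb-/- mice the spread within that group was poorly measured, and signal over background could not be judged without detection calls. The median difference of the 10 genes stayed between 0.47 and 0.89 under every alternative run. With all 3 labelled mice, 0 member probe sets passed either rule (2 had an unadjusted p under 0.05, smallest adjusted p 0.428), 0 probe sets of all were higher and 0 lower under the first rule (3 at an adjusted p under 0.05 and 3534 at an unadjusted p under 0.05), 0 of the other endothelial genes were higher and 0 lower under the second, and Tie1 turned to -0.09. Leaving out each mouse in turn gave 0 to 3 member probe sets under the first rule (2 with all 5 arrays) and 3 to 9 under the second (6 with all), 97 to 570 of all probe sets higher (717) and 335 to 1506 lower (1558), and 12 to 28 other endothelial genes higher (33) and 6 to 8 lower (9). The lowest counts over all probe sets came without animal 17, where 97 were higher and 335 lower; 355 were higher without animal 14, and without animal 8-1 298 were higher and 676 lower. Leaving out each mouse moved Tie1 between -0.05 (without animal 9-1) and 0.11. Restricting the test to probe sets above the median mean left 415 higher and 1004 lower in all, since fewer were tested. Centring on cartilage and bone genes gave 4 member probe sets under the first rule, 1083 probe sets higher in all and 19 other endothelial genes higher. In that fit the SE was 0.28 for each of the 10 genes, against 0.13 (Tie1) to 0.32 (Sox7) in the main fit. Its calls on the members therefore did not use each gene's own spread. Over single member genes, 96 of 120 values kept their direction and side of the second rule's threshold, 9 no longer passed, 13 newly passed and 2 (Tie1) changed sign. With the mean over each gene's probe sets, adjusted over fewer tests, Cdh5, Sox7, Sox18 and Egfl7 newly passed with adjusted p of 0.0444 to 0.0467. The alternatives on the other endothelial genes were added after seeing the data.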
